A study of Mus musculus with 6 samples.

Results

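The transcription regulators described here mark resting and memory T cells and number 10: Foxo1, Foxo3, Foxp1, Tcf7, Lef1, Bach2, Satb1, Ets1, Ikzf1 and Tsc22d3. They were taken by name, by a rule that uses no measured value, but the set was put together with earlier results of these data known. All 10 matched 1 row each of the 48440 genes in the count table. RNA had been sequenced from CD4+ T cells, the helper lymphocytes, isolated from the lymph nodes and spleens of mice of wildtype genotype. Cells of both groups shared the same history, 3 days of activation on plates coated with antibodies to CD3 and CD28 followed by 5 days of growth in interleukin 2 (IL2) without the antibodies. The unstimulated group (3 libraries) was not stimulated again. The stimulated group (3 libraries) met both antibodies again for 4 hours, a treatment that engages the T cell receptor and its costimulatory receptor. The cells called resting or at rest here are therefore unstimulated, previously activated cells grown in IL2, and not naive cells. Whether they had left the cell cycle was not tested. The sources used here do not state strain, age or any pooling of mice. They call the replicates biological without saying that each came from its own mouse. The p-values therefore set the difference between groups against the spread among these libraries, part of which may be technical.

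Resting T cells hold themselves out of the cell cycle and in circulation through an active gene programme. FOXO factors work in the nucleus until receptor and costimulatory signals activate the kinase AKT, which phosphorylates them and sends them to the cytoplasm. TCF1 (from Tcf7) and LEF1 bind the same DNA motif and keep T cells in a self-renewing, memory-like state, BACH2 holds back effector genes, and FOXP1 enforces quiescence. SATB1 organises chromatin in the T lineage, ETS1 and Ikaros (from Ikzf1) are lineage factors of lymphocytes, and GILZ (from Tsc22d3) is a leucine zipper protein induced by glucocorticoids and by FOXO factors that restrains receptor signalling.

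The libraries held between 29897720 and 30252923 counted reads. Levels below are normalised read counts in CPM, which divides reads by a library size scaled with TMM, a method that sets most genes level between libraries. Each change is a log2 fold change, positive where the stimulated cells were higher, tested across 13314 genes with edgeR's quasi-likelihood test at a Benjamini-Hochberg adjusted p of 0.05. The CD4 T cell markers were abundant in every library, with a summed level of 4724 to 4973 CPM at rest and 2377 to 2555 CPM after stimulation. Of these 9 markers 8 fell, where 39.1% of all tested genes did. The stimulus registered in all stimulated libraries: Il2, the T cell growth factor, was at 0.475 ± 0.117 CPM (SD, n = 3) at rest and at 251 ± 54.0 CPM after stimulation. In bulk RNA, fewer cells of a type and less RNA per cell cannot be told apart, and each change is a share of the library's RNA and not an amount per cell.

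Among the 10 factors, 8 fell and both others, Foxp1 and Bach2, rose. All 10 passed the filter on low counts and all 10 passed the test, 8 downward, where 39.1% of all tested genes fell, and 2 upward, where 38.4% rose. The median change of the 10 was -1.11, against -0.04 over all tested genes. The stimulated libraries lay below every unstimulated library for 8 factors, against 40.4% of tested genes, and above every one for 2, against 39.4%. Tested with glmTreat against a change of 2-fold, 5 factors (Tcf7, Tsc22d3, Lef1, Foxo1 and Ets1) fell by more than that, against 18.2% of tested genes, and none rose by more, against 17.4%. Together the 10 transcripts made up 5591 to 6096 CPM of the unstimulated and 2581 to 2723 CPM of the stimulated libraries.

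**Figure D1:**
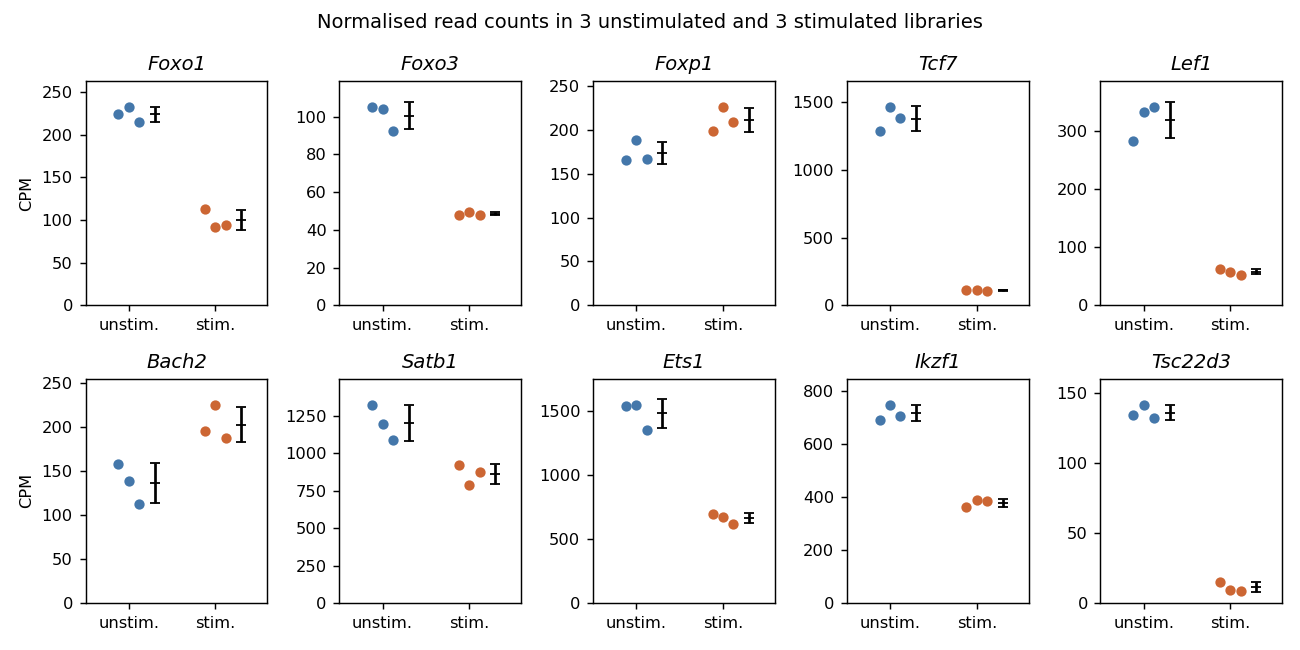
Normalised read counts (CPM, axes from 0) of the 10 factors in the 3 unstimulated (blue) and 3 stimulated (orange) libraries, with mean and SD in black. Foxp1 and Bach2 sit higher after stimulation, the 8 others lower, and the libraries of the groups do not overlap in any panel.

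The deepest falls were those of Tcf7 and Tsc22d3. Tcf7, on chromosome 11 (52252371 to 52283014 in GRCm38, ENSMUSG00000000782), stood at 1286, 1466 and 1386 CPM in unstimulated replicates 1, 2 and 3 and at 114, 113 and 106 CPM in the stimulated ones. The highest stimulated library thus lay far below the lowest unstimulated one. The fall was 12.5-fold (log2 fold change -3.64, SE 0.073; edgeR, adjusted p = 4.23e-09), on 40408 to 46366 reads per library at rest and 3066 to 3210 after stimulation. Only 233 of the 13314 tested genes had a lower change. Despite that fall, Tcf7 remained readily detected in stimulated cells.

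Tsc22d3 (chromosome X, 140539528 to 140600659, ENSMUSG00000031431) was even across the resting libraries, at 134, 142 and 132 CPM. After stimulation it was at 15.2, 9.48 and 8.58 CPM, with replicate 1 above the other stimulated libraries by up to 1.77 times. The fall was 12.3-fold (log2 fold change -3.62, SE 0.20; edgeR, adjusted p = 1.31e-06), on 249 to 429 reads per stimulated library. Without stimulated replicate 1 the change was -3.90.

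Lef1, the closest relative of Tcf7 in the set (chromosome 3, 131110471 to 131224356, ENSMUSG00000027985), went from 283, 331 and 341 CPM to 62.0, 57.4 and 52.8 CPM. That fall was 5.55-fold (log2 fold change -2.47, SE 0.097; edgeR, adjusted p = 3.74e-08), shallower than that of Tcf7. The log2 ratio of Tcf7 to Lef1 per kilobase of exon was 3.93, 3.89 and 3.77 at rest and 2.62, 2.72 and 2.75 after stimulation. It was lower by 1.17 in stimulated cells and did not overlap between the groups (exact permutation test, two-sided, p = 0.1, the smallest that 3 against 3 libraries can give, and 0.15 adjusted over 3 pairs of relatives). Another choice of gene length would move the level of this ratio but not its difference between groups. The exons of Lef1 share 1208 bases with an antisense transcript, Gm43352. Gm43352 had 174 to 234 reads at rest and 16 to 30 after stimulation, against 8892 to 10844 and 1531 to 1748 for Lef1.

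**Figure D2:**
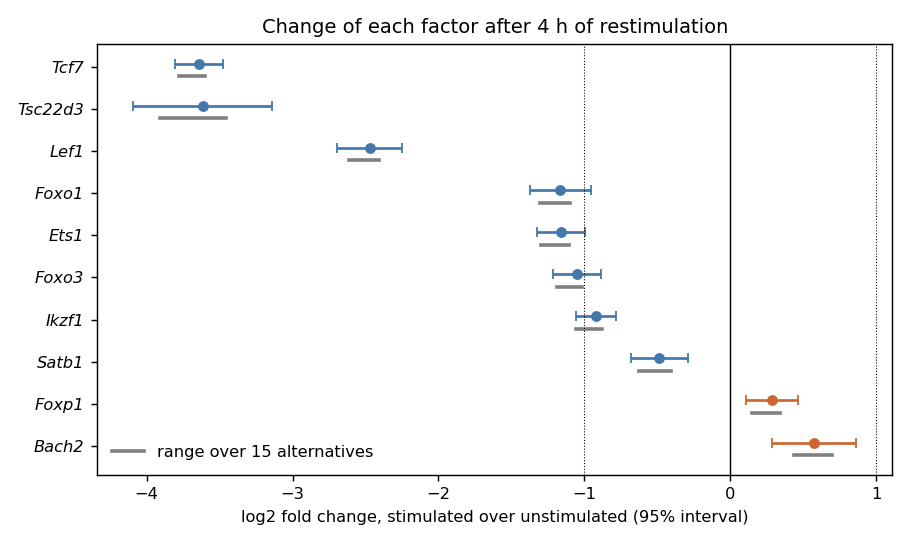
Log2 fold change of each factor (points, with 95% interval) and the range over 15 alternative settings (grey bars). The dotted lines mark a 2-fold change. Tcf7, Tsc22d3 and Lef1 stand apart at the low end, between -3.64 and -2.47, and Foxp1 and Bach2 are the factors above 0.

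Stretches of promoter are shown for the 3 deepest falls and for Bach2, the larger of the rises, because these are the ends of the range of change. The windows were the 250 bases before each start site in RefSeq (GRCm38.p6), 22 windows for 9 of the 10 factors, with none for Ets1. Some windows of Lef1 and of Satb1 overlap each other, so the 22 are not all separate stretches. Some windows of these genes also lie wholly within annotated exons. In all, 6 short motifs were searched on both strands. TGTTTAC, the core of the FOXO site, CTTTGAT, the TCF and LEF site, and TGACTCA, the AP-1 site, matched in none of the 22 windows, and in 3.17%, 3.21% and 4.46% of all 32841 windows of that length. CCGGAAGT, an ETS site, matched once, in Tcf7 (2.88% of all windows). TGGGAA, an Ikaros core, matched in 2 of the 22 windows, in Satb1 and Tsc22d3 (21.6% of all windows). That Satb1 window lies wholly within annotated exons. AGAACA, a half-site of the glucocorticoid receptor, called its core below, matched in 5 of the 22 (16.1% of all windows). These lay in Bach2, Ikzf1, Lef1 and Tsc22d3. Only the half-site was searched, not a full site. A match is only a run of letters, and a missing match says only that these letters are not in the window. The matched letters are in capitals below, each stretch is 30 bases on the strand of the gene, and the distance is from the first matched base to the start site.

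Tcf7, ETS site, 26 bases before a start site (chr11:52282603-52282632, minus strand): gagctggagtcACTTCCGGtgccctgacct

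Tsc22d3, Ikaros core, 50 bases before (chrX:140542701-140542730, minus strand): ggtgtagcatccTGGGAAggggcgggggta

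Tsc22d3, glucocorticoid receptor core, 185 bases before another start site (chrX:140600690-140600719, minus strand): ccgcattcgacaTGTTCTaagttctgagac

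Lef1, glucocorticoid receptor core, 10 bases before (chr3:131112761-131112790, plus strand): gggtttaaagagtgcttttaAGAACAcctc

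Lef1, glucocorticoid receptor core, 125 bases before another start site (chr3:131156157-131156186, plus strand): gattgcattgtcTGTTCTcaaagtcaggtc

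Bach2, glucocorticoid receptor core, 98 bases before (chr4:32417325-32417354, plus strand): ggagtactgtgtTGTTCTcaaagttgagta

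Both FOXO genes fell by a similar amount. Foxo1, the main FOXO factor of naive and memory T cells (chromosome 3, 52268336 to 52353221, ENSMUSG00000044167), went from 224, 233 and 215 CPM to 113, 91.6 and 94.2 CPM, a fall of 2.24-fold (log2 fold change -1.17, SE 0.091; edgeR, adjusted p = 2.82e-06). Foxo3, which drives death and stress genes (chromosome 10, 42181841 to 42276755, ENSMUSG00000048756), went from 105, 104 and 92.2 CPM to 48.0, 49.6 and 48.1 CPM, a fall of 2.07-fold (log2 fold change -1.05, SE 0.073; edgeR, adjusted p = 1.20e-06). The stimulated libraries of Foxo3 lay within 1.03 times of each other, those of Foxo1 within 1.24 times. The log2 ratio of Foxo1 to Foxo3 per kilobase was 0.96 ± 0.064 at rest and 0.84 ± 0.18 after stimulation (SD, n = 3 each), with overlapping values (difference -0.12; exact permutation test, two-sided, p = 0.4, also 0.4 adjusted over 3 pairs).

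Foxp1, a forkhead factor of another branch (chromosome 6, 98925338 to 99522721, ENSMUSG00000030067), moved the other way. It stood at 166, 188 and 167 CPM at rest and at 199.5, 227 and 209 CPM after stimulation, so that the lowest stimulated library was only slightly above the highest resting one. The rise was 1.22-fold (log2 fold change 0.28, 95% interval 0.10 to 0.46; edgeR, adjusted p = 0.00889). With library size alone in place of TMM, which shifts the changes of all genes by a median of -0.14, the value was 0.14 and did not pass (edgeR, Benjamini-Hochberg adjusted p = 0.130). Its adjusted p lay between 6.46e-04 and 0.130 over 15 alternatives. The exons of Foxp1 share 300 bases with Gm20696 on the same strand, which had 3 to 31 reads per library, against 5224 to 6459 for Foxp1. The log2 ratio of Foxo1 to Foxp1 per kilobase went from 1.03 ± 0.064 to -0.43 ± 0.25 without overlap between groups. The difference was -1.46 (exact permutation test, two-sided, p = 0.1, the smallest possible, and 0.15 adjusted over 3 pairs). With the longest transcript as length, resting Foxo1 and Foxp1 stood at 25.8 ± 1.04 and 24.2 ± 1.75 CPM per kilobase. The level of such a ratio thus depends on the length used, but its difference between groups does not.

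Bach2, a repressor of the effector programme (chromosome 4, 32238804 to 32586108, ENSMUSG00000040270), stood at 158, 138 and 113 CPM at rest, the widest spread of the 10 factors among resting libraries, with the highest 1.40 times the lowest. After stimulation it was at 195, 226 and 188 CPM, above all resting libraries. The rise was 1.49-fold (log2 fold change 0.57, 95% interval 0.28 to 0.86; edgeR, adjusted p = 0.00280), and was 0.44 without unstimulated replicate 3, the lowest resting library. An antisense gene, Bach2os, shares 537 exon bases with Bach2 and had 0 to 5 reads at rest and 14 to 22 after stimulation, against 3585 to 6427 for Bach2. Bach2 and several other factors of the set are also expressed in B cells. Summed B cell markers were at 1423 to 2876 CPM at rest and 744 to 1289 CPM after stimulation, nearly all of it Ighm, an immunoglobulin gene. Without Ighm the sums were 86.8 to 89.3 and 37.5 to 44.2 CPM, with Ebf1, a factor that defines the B lineage, at 0.843 ± 0.187 and 1.12 ± 0.227 CPM. Of 12 markers, 11 were tested, 8 fell and 1 rose, where 39.1% and 38.4% of all tested genes did. The part of B cell RNA in the levels of the 10 factors was not tested. Myeloid markers summed to 12.5 to 14.3 CPM at rest and 4.62 to 7.94 CPM after stimulation. Of 7 tested, 4 fell and 1 rose, against those same shares. Of the 11 listed, 4 were under 1 CPM in every library. Markers of CD8 T cells and natural killer cells were higher in sum after stimulation, from 37.6 to 46.8 CPM at rest to 82.9 to 138 CPM. Eomes, at 19.6, 2.78 and 1.70 CPM at rest and 112, 58.2 and 77.9 CPM after stimulation, made up most of the stimulated sum. Without Eomes the sum did not rise. Of the 4 tested markers of this list, 2 rose and 2 fell, set against the same shares. The part of CD8 T cells and natural killer cells in the levels of the 10 factors was not tested.

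The lineage factors fell less deeply than Tcf7. Ets1 (chromosome 9, 32636221 to 32757820, ENSMUSG00000032035) went from 1539, 1548 and 1349 CPM to 696, 670.2 and 618 CPM, a fall of 2.24-fold (log2 fold change -1.16, SE 0.073; edgeR, adjusted p = 6.68e-07). Ikzf1 (chromosome 11, 11685003 to 11772926, ENSMUSG00000018654) went from 693, 751 and 708 CPM to 361, 390.0 and 385 CPM, a fall of 1.89-fold (log2 fold change -0.92, SE 0.061; edgeR, adjusted p = 9.31e-07). Satb1 (chromosome 17, 51736187 to 51833290, ENSMUSG00000023927) showed the shallowest fall, from 1326, 1195 and 1088 CPM to 919, 786 and 872 CPM, or 1.40-fold (log2 fold change -0.49, SE 0.086; edgeR, adjusted p = 6.67e-04). All 3 had groups that did not overlap.

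**Figure D3:**
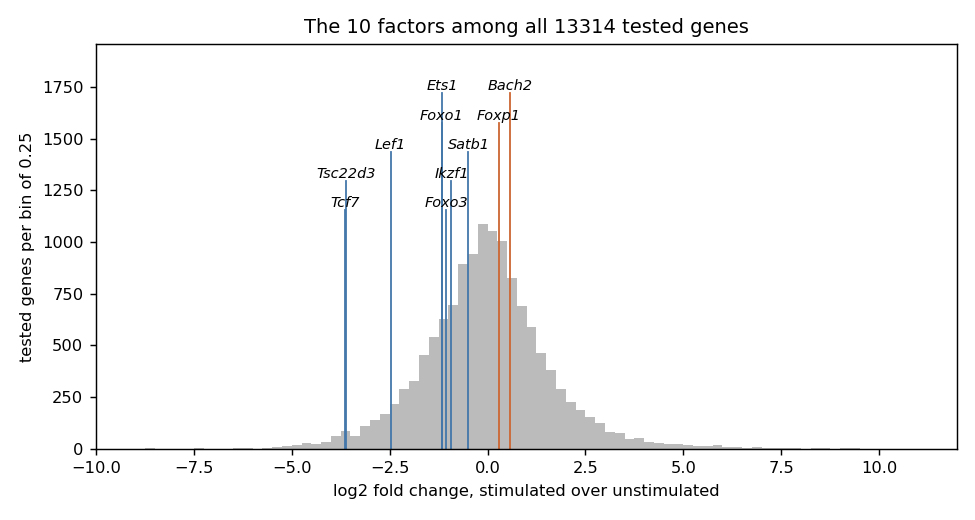
Distribution of log2 fold changes over the 13314 tested genes (bars, bins of 0.25) with the position of each factor marked (blue fell, orange rose). Tcf7 and Tsc22d3 lie in the lower tail, with 233 and 237 genes below them, while Foxp1 and Bach2 lie close to the centre.

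Read per kilobase of exon, which allows levels of different genes to be compared, Tcf7 led the resting cells by a wide margin at 525 ± 34.3 CPM per kilobase (SD, n = 3). Ets1 (174 ± 13.2), Ikzf1 (124 ± 5.20), Satb1 (63.2 ± 6.26) and Lef1 (36.2 ± 3.53) followed, then Tsc22d3 (31.3 ± 1.18) and Foxo1 (25.8 ± 1.04). Bach2 (13.7 ± 2.30), Foxo3 (13.3 ± 0.957) and Foxp1 (12.7 ± 0.912) came last and overlapped with their neighbours in that order, as did Lef1 and Tsc22d3. After stimulation Ets1 (78.0 ± 4.69) and Ikzf1 (65.6 ± 2.63) led, Satb1 (45.1 ± 3.54) and Tcf7 (42.2 ± 1.68) overlapped, and Bach2 (20.4 ± 2.02) and Foxp1 (15.4 ± 1.00) stood above Foxo1 (11.5 ± 1.37). Lef1 (6.53 ± 0.524) and Foxo3 (6.41 ± 0.116) overlapped near the bottom, above Tsc22d3 (2.55 ± 0.828). Tcf7 thus went from rank 1 to rank 4 and Tsc22d3 from rank 6 to rank 10, whereas Foxp1 went from rank 10 to rank 6. With the longest annotated transcript as the length, 5 resting and 7 stimulated ranks differed, and Satb1 instead of Ets1 led the stimulated cells.

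**Figure D4:**
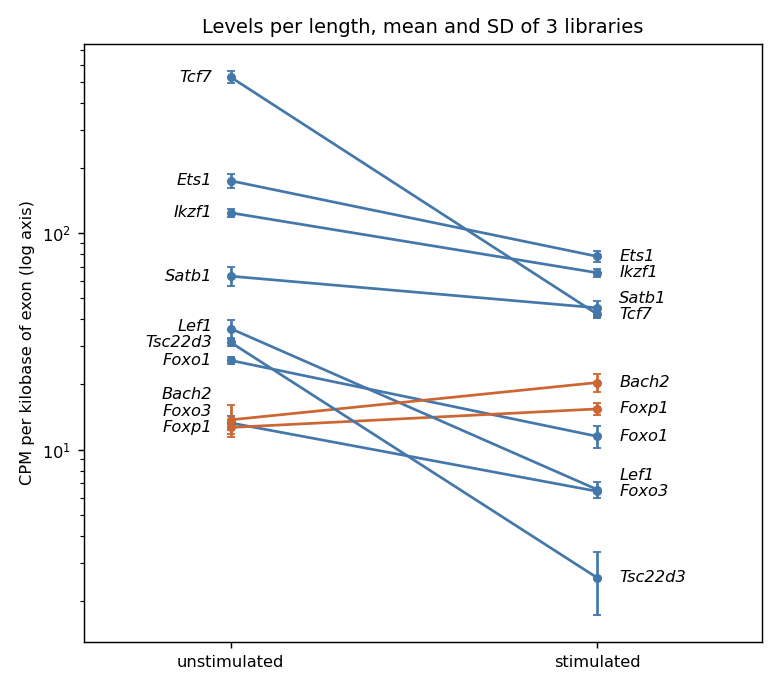
Level of each factor per kilobase of exon (log axis), mean and SD of 3 libraries, joined between unstimulated and stimulated cells (blue fell, orange rose). Tcf7 drops from 525 to 42.2 CPM per kilobase, and the lines of Bach2 and Foxp1 cross those of Foxo1, Lef1 and Tsc22d3.

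For each factor the genes with the most similar pattern were taken as those with the smallest Euclidean distance between mean-centred log2 CPM profiles over the 6 libraries. As the libraries form 2 groups, likeness mostly means a similar size of change. Nearest to Tcf7 were Entpd5 (change -3.57, distance 0.17) and Zranb3 (change -3.77, distance 0.18). Nearest to Tsc22d3 were Abcg1, a cholesterol exporter, which also had its highest stimulated level in replicate 1 (change -3.82, distance 0.27), and the antisense gene Mypopos (distance 0.35). Foxo1 lay nearest to Zfp113 and Gdap2 (distances 0.020 and 0.049), Foxo3 to the transcription factor gene Sp3 and to Gigyf1 (0.067 and 0.072) and Lef1 to Pxylp1 and Spata2l (0.16 and 0.17). Bach2 lay nearest to Ralgapa1 and Bag4 (distances 0.12 and 0.13), and Foxp1 to Ptpn9 and the processed pseudogene Gm10288 (0.066 and 0.077). Satb1 lay nearest to the histone demethylase gene Kdm4c and to Lrrc61 (0.080 and 0.10), Ets1 to Sclt1 and Tbcel (0.060 and 0.071), and Ikzf1 to Pcyox1 and Rassf7 (0.060 and 0.079).

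Known target genes of FOXO factors mostly fell. Of 22 listed genes, 17 fell and 4 rose, where 39.1% and 38.4% of all tested genes did, with a median change of -2.16. Some genes stand in more than 1 of the lists that follow. Klf2, the factor that keeps T cells circulating, and its target S1pr1, the receptor for leaving lymphoid tissue, both fell 39.0-fold. Pik3ip1, an inhibitor of PI3 kinase, fell 18.9-fold, from 199.6 ± 14.4 to 10.6 ± 0.940 CPM (SD, n = 3). The falls of these target genes were several times larger than those of Foxo1 and Foxo3 themselves. The 3 rising members with the smallest p were Sod2, a mitochondrial antioxidant enzyme (2.72-fold), Bcl2l11, which encodes the death protein BIM (from 69.5 ± 16.8 to 256 ± 6.06 CPM), and the autophagy gene Gabarapl1 (1.92-fold). Irs2 was at 17.9 ± 0.449 and 17.1 ± 0.329 CPM and did not pass (edgeR, adjusted p = 0.449).

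Genes of the kinase pathway upstream of FOXO were 3 up and 9 down of 13, against 38.4% and 39.1% of all tested genes, with a median of -0.82. In glmTreat 4 fell by more than 2-fold and 0 rose by more, where 18.2% and 17.4% of all tested genes did. The PI3 kinase subunits Pik3r1, Pik3r5 and Pik3cd fell 4.92-fold, 3.03-fold and 2.19-fold, while the kinases Akt1 and Akt2 rose by 0.59 and 0.51 on the log2 scale and Mdm2 by 0.29. Akt1, for example, was at 180.1 ± 2.62 CPM at rest and 271 ± 6.93 CPM after stimulation (edgeR, adjusted p = 1.49e-05).

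Genes that accompany TCF1 in naive, memory or stem-like T cells divided 8 down and 4 up of 14, with a median of -0.98. Of all tested genes, 39.1% fell and 38.4% rose. Axin2, a classical target of TCF and beta-catenin, fell 7.98-fold, from 73.8 ± 1.83 to 9.24 ± 0.927 CPM. The interleukin 7 receptor gene Il7r fell 9.71-fold. The ligand Tnfsf8 (CD30L) rose from 129.6 ± 15.6 to 1079 ± 124 CPM and the chemokine Xcl1 was at 0.0741 ± 0.102 and 9.05 ± 2.27 CPM. Eomes was at 19.6, 2.78 and 1.70 CPM at rest and at a mean of 82.6 ± 27.1 CPM after stimulation (edgeR, adjusted p = 0.0215). The edgeR adjusted p of Eomes was 0.0533 without unstimulated replicate 3, 0.0831 without stimulated replicate 1 and 0.0622 with no filter. These 3 settings ended the call, as did a threshold of 0.01, and the adjusted p ranged from 1.60e-04 to 0.0831. Without unstimulated replicate 3, with no filter or at a threshold of 0.01, 2 genes of this list rose.

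Among partners and relatives of TCF1 and LEF1, 5 of 9 tested genes fell and 2 rose (4 with the replicate number as a block). The shares over all tested genes were 39.1% and 38.4%. Bcl9l, a coactivator that joins beta-catenin, fell 13.2-fold, from 76.6 ± 10.1 to 5.81 ± 0.320 CPM, close to the fold of Tcf7. The corepressor genes went both ways: Aes and Tle4 fell 2.85-fold and 2.74-fold, and Tle3 and Tle1 rose by 1.12 and 1.43 on the log2 scale. Ctnnb1, which encodes beta-catenin, was at 347 ± 14.4 and 382 ± 14.3 CPM and did not pass (edgeR, adjusted p = 0.0722). Tcf7l2 did not pass the filter on low counts.

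Forkhead relatives were 6 up and 6 down of 12 tested, with a median of -0.09, where 38.4% of all tested genes rose and 39.1% fell. Foxo4, another FOXO gene, fell 4.24-fold (from 50.9 ± 1.43 to 11.99 ± 1.31 CPM), the cell cycle factor Foxm1 fell 4.09-fold and Foxj2 by 1.39 on the log2 scale. Foxp4, a close relative of Foxp1, rose 3.45-fold (from 72.1 ± 8.99 to 248 ± 19.0 CPM; edgeR, adjusted p = 4.00e-07), Foxk2 rose 2.64-fold, and the ciliary factor Foxj1 rose from a low level, from 0.253 to 2.74 CPM. ETS relatives were 6 up, 6 down and 1 not called of 13, also near those shares. Fli1 and Elf4 fell 5.43-fold and 4.55-fold, and Elk4 by 0.97 on the log2 scale, while Ets2 rose by 0.83, Elk3 by 0.95 and Etv6 by 2.38 on the log2 scale.

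Of the 6 tested relatives and dimer partners of BACH2, 4 rose and 2 fell, where 38.4% and 39.1% of all tested genes did. The small MAF proteins, with which BACH proteins pair on DNA, rose: Maff 9.43-fold, Mafg 4.02-fold and Mafk 3.94-fold, Mafg from 26.7 ± 2.36 to 107 ± 0.993 CPM. Bach1, in contrast to Bach2, fell 2.04-fold (from 29.7 ± 4.22 to 14.6 ± 0.125 CPM; edgeR, adjusted p = 2.58e-05), and Nfe2l2, which encodes the antioxidant regulator NRF2, fell by 0.91 on the log2 scale. Relatives of Satb1, Tsc22d3 and Ikzf1 were 4 up and 1 down of 7 tested, against those same shares. The number down was 3 with library size alone and 2 without unstimulated replicate 3. Tsc22d4 fell 2.86-fold, in the direction of Tsc22d3, while Tsc22d1 and Tsc22d2 rose by 0.56 and 0.77, and Ikzf4 rose by 1.53 on the log2 scale.

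Tsc22d3 is among the best known of the genes that respond to glucocorticoids. Of 10 such genes, Tsc22d3 included, 5 rose and 4 fell, where 38.4% and 39.1% of all tested genes did. Tested against a change of 2-fold, 3 fell by more (Tsc22d3, Sgk1 and Zbtb16) and 1 rose by more (Mt2), where 18.2% and 17.4% of all tested genes did. Sgk1, a kinase gene, fell 2.88-fold. Fkbp5, a chaperone induced by the hormone, rose 2.11-fold (from 77.1 ± 3.72 to 163 ± 5.45 CPM; edgeR, adjusted p = 6.24e-07), and the metallothionein genes Mt2 and Mt1 rose 6.17-fold and 2.17-fold. The receptor gene Nr3c1 fell 2.15-fold and Zbtb16 4.23-fold, the latter at 1.15 ± 0.114 CPM at rest.

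Other factors of resting and memory T cells were 10 down and 4 up of 18, with a median of -0.50. All tested genes were 39.1% down and 38.4% up. Mxd4, which opposes MYC, fell 45.1-fold (from 189.5 ± 10.9 to 4.19 ± 0.818 CPM) and the antiproliferative gene Btg2 8.85-fold, both with Klf2 among the deepest. Gfi1, a repressor, rose 3.32-fold. Zeb1 was at 45.1 ± 1.91 and 51.4 ± 1.78 CPM (edgeR, adjusted p = 0.0269). That call ended at a threshold of 0.01, with library size alone (edgeR, adjusted p = 0.505) and with no filter (0.0545). It also ended when unstimulated replicate 1 or 3 was left out (edgeR, adjusted p = 0.0697 and 0.0571), and likewise stimulated replicate 1 or 2 (0.0685 and 0.0794), in a span of 0.0152 to 0.505. The number of rises in this list was 2 with library size alone or without stimulated replicate 1 or 2. It was 1 with no filter, without unstimulated replicate 3 or at a threshold of 0.01.

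Factors of effector T cells mostly moved opposite to the 8 falling factors. Of 14, 10 rose and 1 fell, where 38.4% and 39.1% of all tested genes did, with a median of 1.05. Bhlhe40, which supports cytokine production, rose 6.75-fold (from 54.6 ± 6.17 to 368 ± 21.4 CPM), Tbx21, which encodes T-bet, 5.68-fold and the growth regulator Myc 8.05-fold. Prdm1, which encodes BLIMP-1 and is a gene that BACH2 is known to repress, was at 17.9, 15.2 and 15.2 CPM at rest and at 14.5, 8.11 and 10.99 CPM after stimulation, the one member that fell (log2 fold change -0.52, SE 0.19; edgeR, adjusted p = 0.0346). When unstimulated replicate 1, 2 or 3 was left out, the edgeR adjusted p was 0.0902, 0.0571 and 0.0512, and when stimulated replicate 2 or 3 was, 0.0883 and 0.0923, so that in each of these cases 0 genes of the list fell. Nor did any gene of the list fall at a threshold of 0.01. The adjusted p of Prdm1 spanned 0.00120 to 0.0923.

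**Figure D5:**
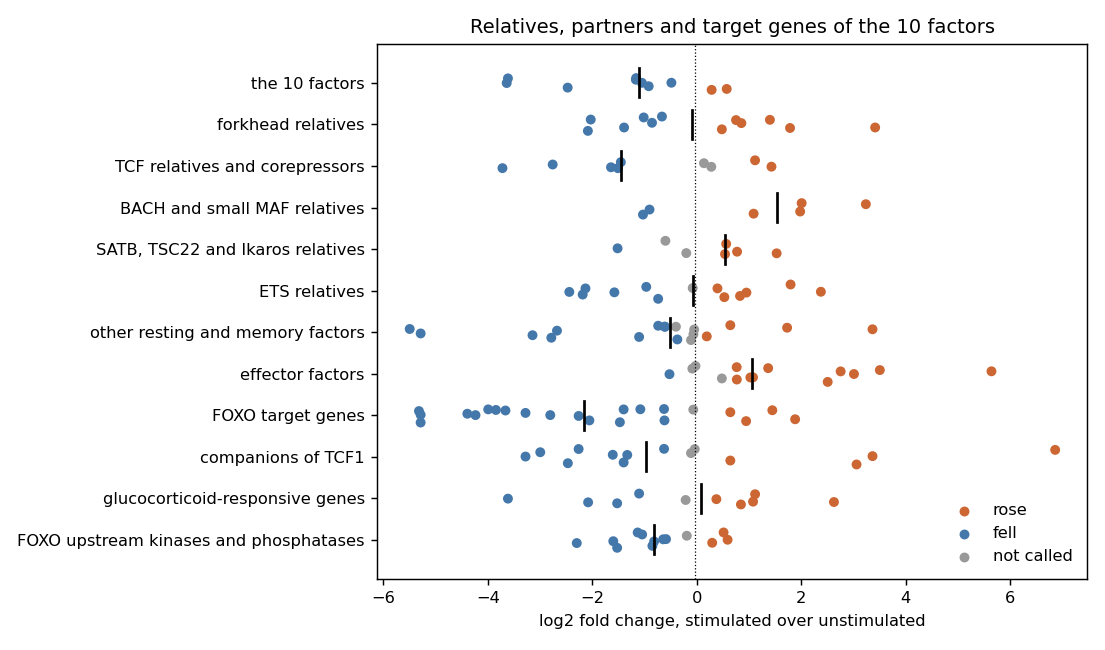
Log2 fold changes of the 10 factors and of the tested genes in 11 related lists (points, orange rose, blue fell, grey not called), with the median of each list as a black bar and the median of all tested genes as a dotted line. FOXO target genes have a median of -2.16 and effector factors one of 1.05, while forkhead and ETS relatives spread to both sides.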

How the data were processed

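RNA sequencing of 6 libraries was used. The authors deposited raw counts of reads per Ensembl gene, 1 column per library. The build GRCm38 and the tools HTSeq, DESeq2 and STAR 2.5.2a are named, without roles, per the submitters' processing notes. The sources used here do not state annotation release, strand setting or read filters, so that reads of overlapping antisense genes cannot be told apart. Group and replicate number came from the labels. Replicates of a group always differed by more than counting noise (dispersion index 9.11 to 37.1, where counting noise alone gives about 1).

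Symbols, coordinates and exon lengths came from GENCODE M21, which matched 48058 identifiers. Tests were two-sided, robust quasi-likelihood fits on group in edgeR 4.0.16 under R 4.3.3, after filterByExpr and TMM scaling, with glmTreat against a log2 change of 1. The filter left 13314 genes. The SE came from the change and the F statistic. The fit was tested on simulated data.

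The members and the gene lists were chosen with earlier results of these data known, so that the lists are no independent support. All 10 members were named, with up to 3 rising and 3 falling genes of smallest p per list and the 2 genes of most similar pattern per factor, and Il2 and Ighm. Some genes that this rule selects are not reported here. Irs2, Ctnnb1, Tcf7l2, Ebf1, Sgk1 and overlapping genes were named after their values were seen. Alternatives were RLE, library size alone, no filter, 1 CPM in 3 libraries, DESeq2 1.42.0, limma-voom (limma 3.58.1), replicate number as a block, each library left out, library sizes without the 20 most abundant genes, and an adjusted p of 0.01. Promoter windows came from RefSeq (GRCm38.p6). Python 3.11.15, pandas 2.3.3, numpy 2.4.6, scipy 1.17.1 and matplotlib 3.10.9 were used.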

Additional observations from a re-analysis of the deposited data

How the results depend on the processing

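Over 15 alternatives, 9 of the 10 factors kept their direction and their call in each one. With library size alone, 1 factor rose instead of 2, since Foxp1 (0.14) did not pass (adjusted p = 0.130), while its direction held. The number of falling factors was 8 under every alternative run. Leaving library sizes without the 20 most abundant genes changed almost nothing, because TMM scaling takes up such a difference by construction. With the longest transcript as length, 5 resting and 7 stimulated ranks differed. Over all genes, library size alone gave 4563 rises and 5818 falls. Deviations from the group means of same-numbered libraries correlated at 0.36, 0.084 and 0.38 over genes, and each library correlated best with its own number. As 1 pair lies under 0.1, the numbers were not treated as pairing the samples. With the replicate number as a block, 5326 genes rose and 5516 fell, and the members' counts remained 2 and 8. Of 330 counts for the other lists, 312 lay within 1.5 times of the reported count. At this depth the factor of fewest reads, Tsc22d3, still had 249 in its lowest library.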

Other observations

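Transcripts annotated inside the loci of some factors had low counts of their own. In the Tcf7 locus the antisense gene A630014C17Rik, which shares no exon base with Tcf7, had 142, 156 and 178 reads at rest and 13, 16 and 18 after stimulation. In the Bach2 locus the antisense gene Bach2os, which shares 537 exon bases with Bach2, had 5, 3 and 0 reads at rest and 21, 22 and 14 after stimulation. As the strand setting of the counting is not known, these reads cannot be told apart from reads of the factor itself, and no test was run on them here. Of the 10 factors, 6 (Foxo1, Tcf7, Lef1, Satb1, Ets1 and Tsc22d3) had their highest stimulated level in stimulated replicate 1.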
